A study of Arabidopsis thaliana with 25 samples.

Results

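The 6 genes described here are 3 Aux/IAA genes, IAA20 (AT2G46990), IAA29 (AT4G32280) and IAA30 (AT3G62100), and 3 GH3 genes, GH3.1 (AT2G14960), GH3.3 (AT2G23170) and GH3.5 (AT4G27260, also named WES1). They are auxin response genes that each have 1 row of their own among 38408 rows of the expression table, of which 17504 name a gene. They were chosen by name with earlier results of these data known, and other genes of both families also have a named row. By the RefSeq table of assembly TAIR10.1, GH3.1, GH3.3 and IAA20 lie on chromosome 2, IAA30 on chromosome 3, and IAA29 and GH3.5 on chromosome 4.

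Expression was measured on 25 Affymetrix arrays, from RNA of Arabidopsis thaliana Col-0 seedlings aged 4 days. One line carried pRPS5A::PEAR1-GR (13 arrays, called PEAR1 plants) and the other pRPS5A::PEAR2-GR (12 arrays, called PEAR2 plants). PEAR1 and PEAR2 are DOF transcription factors of the early phloem, here joined to the glucocorticoid receptor (GR) and driven by RPS5A, a promoter of dividing cells. Dexamethasone (DEX) releases a GR fusion into the nucleus, and cycloheximide (CHX) blocks translation. Each line was treated with DEX+CHX for 2 h, with the solvent and inhibitor together (DMSO+CHX) for 2 h, with DEX for 2 h or with DMSO for 1 h, with 3 arrays a group except 4 for DEX+CHX in PEAR1 plants. All plants carried a GR fusion, no line without one was studied, and the labels do not say whether each line descends from a single transformant. Seedlings were moved to treatment medium and the harvested tissue is called root in one label and root tips in another. The batch code was A461 for DMSO+CHX and A451 for the remaining 6 groups. Nothing in the labels says that replicates came from separate plant cultures, so the p-values measure only the spread between these samples.

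Aux/IAA proteins are repressors that hold auxin response factors inactive at their target genes. Auxin joins most of them to TIR1/AFB receptors, which send them for degradation through a short degron sequence, and the freed targets include Aux/IAA and GH3 genes themselves. IAA20 and IAA30 lack that degron, and IAA29 is best known from shade and warm-temperature growth. GH3 enzymes couple hormones to amino acids, which lowers active auxin, and GH3.5 also acts on salicylic acid. Early auxin genes are known for superinduction, the accumulation of their transcripts when translation is blocked.

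Replicate arrays of a group correlated with r of 0.988 to 0.994 over named rows, and arrays with and without CHX with r of 0.890 to 0.922. These 2 sets of arrays parted along the first principal component (80.5% of the variance). The PEAR2 row read 10.7 to 12.1 (log2) in PEAR2 plants and 5.91 to 8.90 in PEAR1 plants. No row names PEAR1. Of 11 root markers only EXPA7 and PYK10 have a named row, with group means of 9.43 to 9.88 and 12.2 to 12.6, and of 8 green tissue markers only RCA has one, at 5.80 to 7.04. All values below are log2 RMA intensities, changes are differences of group means with their standard error from limma, and a change is called where its p, adjusted by Benjamini and Hochberg's method across the 17504 named rows, is under 0.05.

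All 3 GH3 members were higher with CHX in both lines, with DEX and without. GH3.1, an early auxin-induced member of the family, read 11.64, 11.66, 11.72 and 11.74 with DEX+CHX and 6.21, 5.90 and 6.19 with DEX in PEAR1 plants. In PEAR2 plants it read 11.67, 11.52 and 11.73 with DEX+CHX and 6.12, 5.72 and 5.80 with DEX. Every array with CHX was high, within 11.52 to 11.74 over both lines, and every array without it was low. GH3.1 was 48.3-fold higher with DEX+CHX than with DEX in PEAR1 plants (5.59 ± 0.11, adjusted p = 3.36e-20) and 54.4-fold higher in PEAR2 plants (5.77 ± 0.12, adjusted p = 9.36e-20). Without DEX it read 11.64, 11.73 and 11.71 with DMSO+CHX and 6.73, 6.67 and 6.49 with DMSO in PEAR1 plants, a rise of 5.06 ± 0.12. PEAR2 plants gave 11.61, 11.57 and 11.55 with DMSO+CHX and 6.38, 6.55 and 6.83 with DMSO, a rise of 4.99 ± 0.12. These folds are 33.4 and 31.8, and no array with DMSO+CHX overlapped one with DMSO.

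GH3.3, an auxin-conjugating enzyme active in adventitious rooting, was also higher with CHX in all 4 comparisons. It read 11.17, 10.87, 11.09 and 11.10 with DEX+CHX and 4.93, 4.81 and 5.16 with DEX in PEAR1 plants, 68.2-fold higher with CHX (6.09 ± 0.27, adjusted p = 1.03e-14). PEAR2 plants had 10.96, 11.37 and 11.04 with DEX+CHX and 6.10, 5.80 and 4.73 with DEX, 47.8-fold higher with CHX (5.58 ± 0.29, adjusted p = 2e-13). All arrays with CHX were far above those without it, and the spread was widest in PEAR2 plants with DEX. With DMSO+CHX PEAR1 plants read 10.92, 10.94 and 10.78, against 5.95, 4.81 and 5.11 with DMSO, which is 48.2-fold higher. With DMSO+CHX PEAR2 plants read 10.83, 10.85 and 10.59, against 5.16, 5.77 and 4.81 with DMSO, which is 45.6-fold higher. The lowest array with CHX lay 4.48 above the highest without it.

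GH3.5 rose less. In PEAR1 plants it read 8.66, 8.53, 8.52 and 8.46 with DEX+CHX and 6.90, 6.47 and 6.61 with DEX, 3.69-fold higher with CHX (1.88 ± 0.18, adjusted p = 7.58e-09). In PEAR2 plants it read 8.27, 8.57 and 8.02 with DEX+CHX and 6.55, 6.63 and 6.74 with DEX, 3.13-fold higher with CHX (1.65 ± 0.19, adjusted p = 2.05e-07). The groups with and without CHX still did not overlap on any of the 25 arrays, with a gap of 0.79. With DMSO+CHX it read 8.29, 8.16 and 8.42 in PEAR1 plants, against 7.22, 6.44 and 6.44 with DMSO, a rise of 1.59 ± 0.19. PEAR2 plants gave 8.19, 8.66 and 8.22 with DMSO+CHX, against 6.17, 6.69 and 6.50 with DMSO, a rise of 1.90 ± 0.19.

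**Figure D1:**
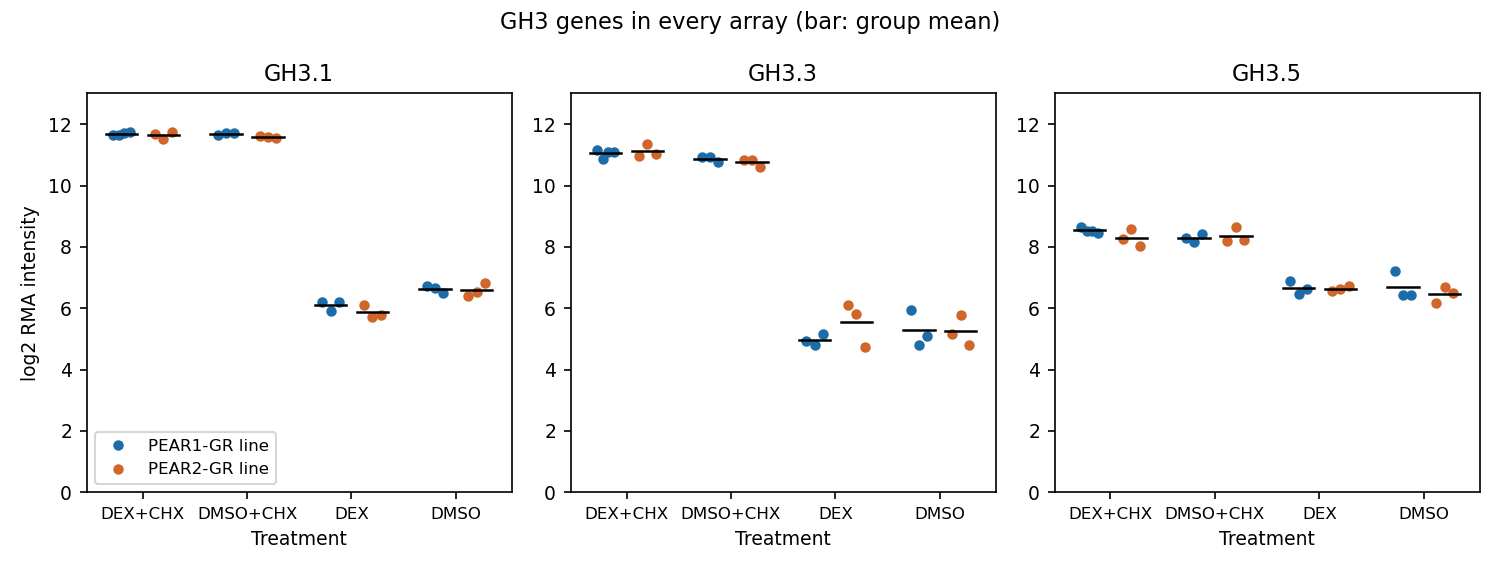
Log2 RMA intensity (y axis) of GH3.1, GH3.3 and GH3.5 on each of the 25 arrays, by treatment (x axis) and line (colour), with points for arrays and bars for group means. GH3.1 lies between 11.52 and 11.74 on arrays with CHX and between 5.72 and 6.83 on arrays without it.

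The Aux/IAA members also rose with CHX, a rise called for IAA29 and IAA30 in every comparison and for IAA20 in 2 of 4. IAA29, a repressor, read 5.92, 5.77, 5.93 and 5.72 with DEX+CHX and 2.38, 2.98 and 2.70 with DEX in PEAR1 plants, 8.85-fold higher with CHX (3.15 ± 0.21, adjusted p = 1.67e-11). In PEAR2 plants it read 6.05, 5.42 and 5.39 with DEX+CHX and 3.12, 2.44 and 2.55 with DEX, 7.55-fold higher with CHX (2.92 ± 0.22, adjusted p = 2.31e-10). Its groups with and without CHX were well apart in both lines. With DMSO+CHX it read 4.97, 5.79 and 5.51 in PEAR1 plants, against 2.67, 2.81 and 2.68 with DMSO, 6.51-fold higher. PEAR2 plants gave 6.09, 5.58 and 5.41 with DMSO+CHX, against 2.65, 2.41 and 2.30 with DMSO, 9.45-fold higher.

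IAA30, a repressor without the degron, read 5.09, 5.20, 5.51 and 4.95 with DEX+CHX and 2.69, 1.64 and 2.1 with DEX in PEAR1 plants, 8.25-fold higher with CHX (3.04 ± 0.26, adjusted p = 1.55e-09). In PEAR2 plants it read 4.99, 5.39 and 5.40 with DEX+CHX and 1.80, 2.72 and 2.58 with DEX, 7.44-fold higher with CHX (2.89 ± 0.28, adjusted p = 1.26e-08). The lowest array with CHX lay 2.23 above the highest without it. With DMSO+CHX it read 5.18, 5.25 and 6.05 in PEAR1 plants, against 1.90, 2.60 and 2.70 with DMSO, 8.55-fold higher. PEAR2 plants gave 5.77, 5.48 and 5.27 with DMSO+CHX, against 1.91, 1.70 and 2.06 with DMSO, 12.3-fold higher.

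IAA20, the other repressor without the degron, read low on all arrays, with and without CHX. It read 2.76, 2.14, 2.88 and 3.6 with DEX+CHX and 1.43, 1.63 and 1.72 with DEX in PEAR1 plants, 2.38-fold higher with CHX (1.25 ± 0.32, adjusted p = 0.0021). In PEAR2 plants it read 3.04, 2.42 and 3.3 with DEX+CHX and 1.79, 1.70 and 1.46 with DEX, 2.41-fold higher with CHX (1.27 ± 0.34, adjusted p = 0.00348). Here the arrays with DEX+CHX were all above those with DEX. With DMSO+CHX it read 2.11, 2.90 and 2.83 in PEAR1 plants, against 2.07, 1.81 and 1.57 with DMSO (0.79 ± 0.34, adjusted p = 0.0605). PEAR2 plants gave 2.44, 3.12 and 2.28 with DMSO+CHX, against 2.12, 1.27 and 2.69 with DMSO (0.59 ± 0.34, adjusted p = 0.171). Only the PEAR2 groups overlapped, through a DMSO array at 2.69, and neither comparison was called. Over 13 alternative settings each, the PEAR1 value without DEX became called in 5 and the PEAR2 value in 2, both under quantile normalization once more at 1.12 and 0.88.

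**Figure D2:**
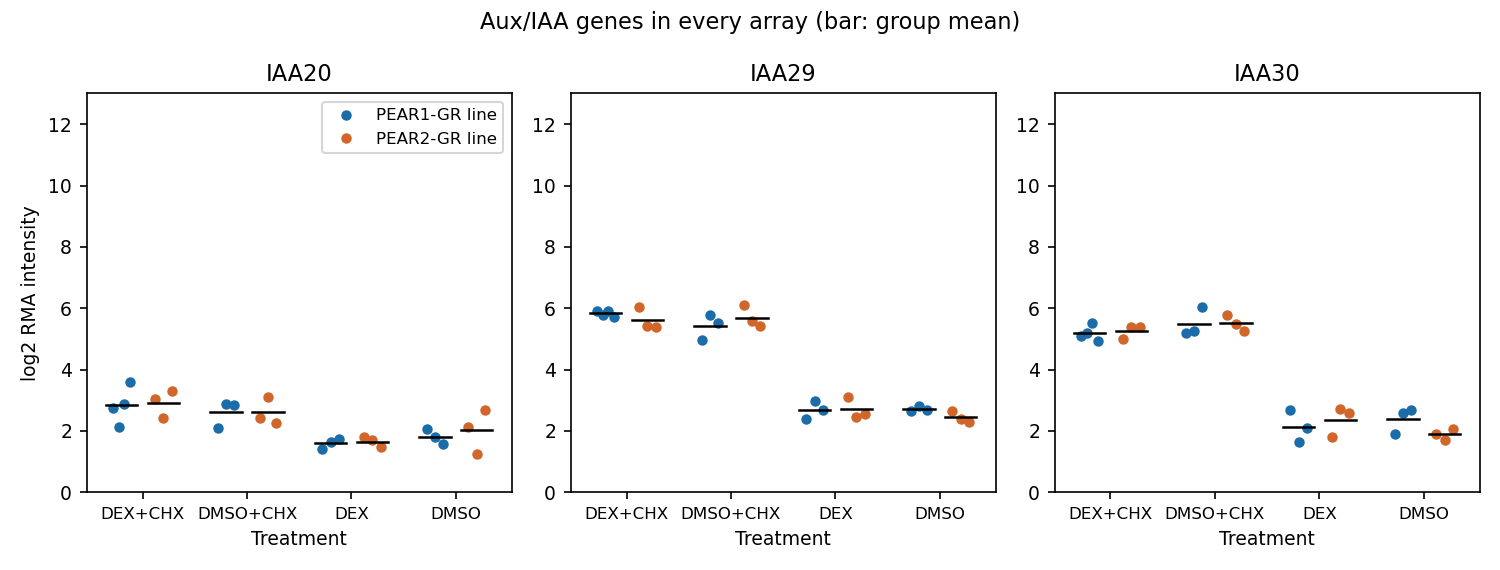
Log2 RMA intensity (y axis) of IAA20, IAA29 and IAA30 on each of the 25 arrays, by treatment (x axis) and line (colour), with points for arrays and bars for group means. IAA29 and IAA30 split by CHX on every array, with all arrays without it at or under 3.12, whereas the lowest IAA20 array with CHX (2.11) lies under the highest without it (2.69).

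Of the 6 members, 6 were called higher with DEX+CHX than with DEX in each line, where 46.0% of all named rows were called in PEAR1 plants (20.1% higher, 26.0% lower) and 45.2% in PEAR2 plants (18.9% higher, 26.3% lower). With DMSO+CHX against DMSO, 5 of 6 were called higher in each line, and 45.6% of named rows were called in PEAR1 plants (20.3% higher, 25.2% lower) and 46.7% in PEAR2 plants (21.5% higher, 25.2% lower). The median change of the members was 3.1, 2.91, 2.90 and 3.43 in these 4 comparisons, in that order, beside -0.09, -0.12, -0.09 and -0.04 over all named rows. Ranked by rise among 17504 rows, GH3.3 stood between 66 and 130, GH3.1 between 77 and 181, IAA30 between 391 and 524, IAA29 between 457 and 605, GH3.5 between 983 and 1247, and IAA20 between 1512 and 3094. The members were chosen with earlier results of these data known, so these counts, medians and ranks only describe them. With DEX+CHX against DEX, 1 of 11 other GH3 genes was called higher in PEAR1 plants and 0 in PEAR2 plants. Of 5 other Aux/IAA genes, 1 was called higher in each line. DEX+CHX and DEX shared both their time and their batch, whereas DMSO+CHX and DMSO differed in both, so that CHX, time and batch cannot be told apart in that pair. Without CHX IAA29 and IAA30, and with or without it IAA20, lay near or under 2.68, below which the lowest 33.3% of named rows lie by their mean. Whether they were above background there was not tested, and their folds and ranks carry that limit. The root marker PYK10 was lower with CHX by -0.25 to -0.41 in all 4 comparisons (called in each). RCA was lower by -0.20 (DEX+CHX against DEX in PEAR1 plants, not called) to -1.13 (called in the other 3), and EXPA7 was called in none. Their part in these results was not tested.

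**Figure D3:**
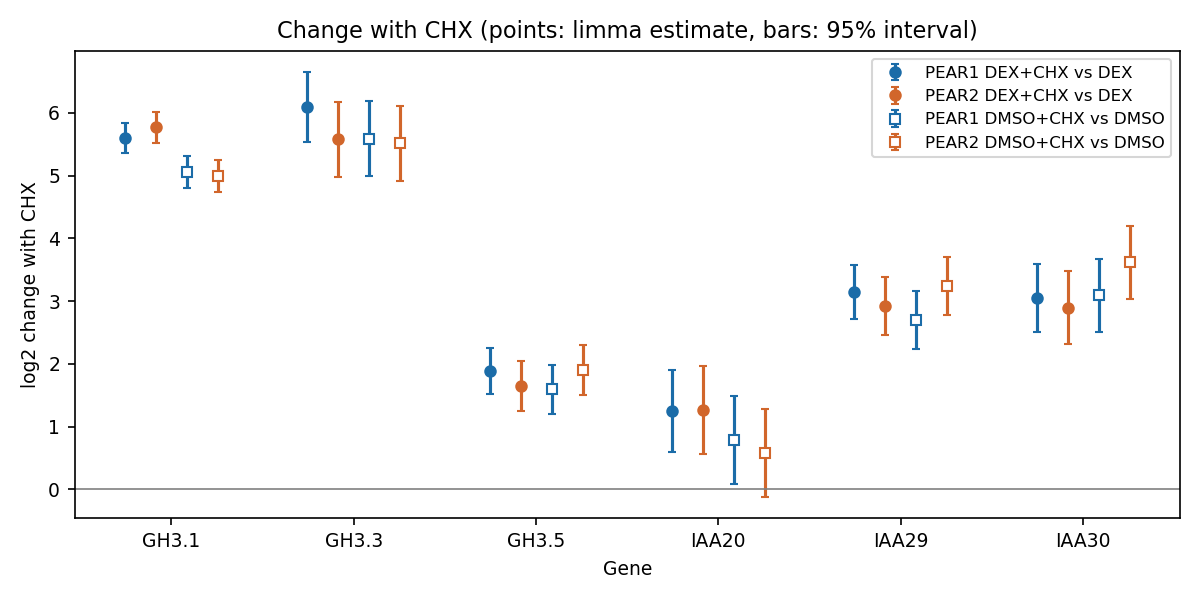
Change with CHX (y axis, log2) of each member (x axis) in both lines (colour), with 95% intervals from limma, for DEX+CHX against DEX (circles) and DMSO+CHX against DMSO (open squares). GH3.1 and GH3.3 lie between 4.99 and 6.09, IAA29 and IAA30 between 2.70 and 3.62, GH3.5 between 1.59 and 1.90, and IAA20 between 0.59 and 1.27.

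DEX without CHX was accompanied by a lower level of GH3.1 and by no called change in the other 5 members. GH3.1 read 6.21, 5.90 and 6.19 with DEX, against 6.73, 6.67 and 6.49 with DMSO, in PEAR1 plants, and fell by 0.53 (SE 0.12, 95% interval -0.79 to -0.28, adjusted p = 0.0149). In PEAR2 plants it read 6.12, 5.72 and 5.80 with DEX, against 6.38, 6.55 and 6.83 with DMSO, and fell by 0.71 (SE 0.12, 95% interval -0.96 to -0.46, adjusted p = 0.00103). In both lines every array with DEX was below every array with DMSO. This is 1 of 6 members called in each line, and 3.07% of named rows were called in PEAR1 plants (1.81% lower) and 4.10% in PEAR2 plants (1.95% lower). The other members changed by -0.32 to -0.03 in PEAR1 plants and by -0.37 to 0.48 in PEAR2 plants, and the widest interval, that of IAA20, ran from -0.93 to 0.48 and from -1.07 to 0.33. DMSO was given for 1 h and DEX for 2 h, so that DEX and time cannot be told apart. RCA, the measured green tissue marker, was lower with DEX as well, by -0.61 ± 0.16 in PEAR1 plants (adjusted p = 0.0414) and -0.39 ± 0.16 in PEAR2 plants (not called), and its part in the GH3.1 result was not tested. In such bulk samples fewer cells of a type and less RNA per cell cannot be told apart. A fit on the 6 arrays compared, with its own estimate of the spread, gave adjusted p = 0.179 in PEAR1 plants and 0.135 in PEAR2 plants. The PEAR1 call was also lost without DMSO replicate 1 (-0.48), DMSO replicate 2 (-0.51) or DEX replicate 2 (-0.43).

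With CHX present, 0 of 6 members were called for DEX in either line by limma, and 0 had an unadjusted p under 0.05. Of all named rows, 3.59% were called in PEAR1 plants and 7.44% in PEAR2 plants. GH3.1 averaged 11.69 ± 0.05 with DEX+CHX (SD, n = 4) and 11.69 ± 0.04 with DMSO+CHX (SD, n = 3) in PEAR1 plants, with a 95% interval of the difference of -0.24 to 0.24. PEAR2 plants averaged 11.64 ± 0.11 with DEX+CHX and 11.58 ± 0.03 with DMSO+CHX (SD, n = 3 each), with an interval of -0.19 to 0.32. GH3.3 was higher by 0.18 in PEAR1 plants and 0.37 in PEAR2 plants, IAA29 differed by 0.41 and -0.07, IAA30 by -0.31 and -0.24, GH3.5 by 0.25 and -0.07, and IAA20 by 0.23 and 0.31. The groups did not overlap for GH3.5 in PEAR1 plants and for GH3.3 in PEAR2 plants, where DEX+CHX was the higher. Neither change was called (limma adjusted p = 0.550 and 0.535). The share of all named rows whose groups did not overlap was not counted. DEX and batch cannot be told apart here, since DMSO+CHX has a batch of its own. GH3.1 read above 99.79% to 99.85% of named rows in the groups with CHX. Whether the arrays could still register a DEX change that high on the scale was not tested.

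**Figure D4:**
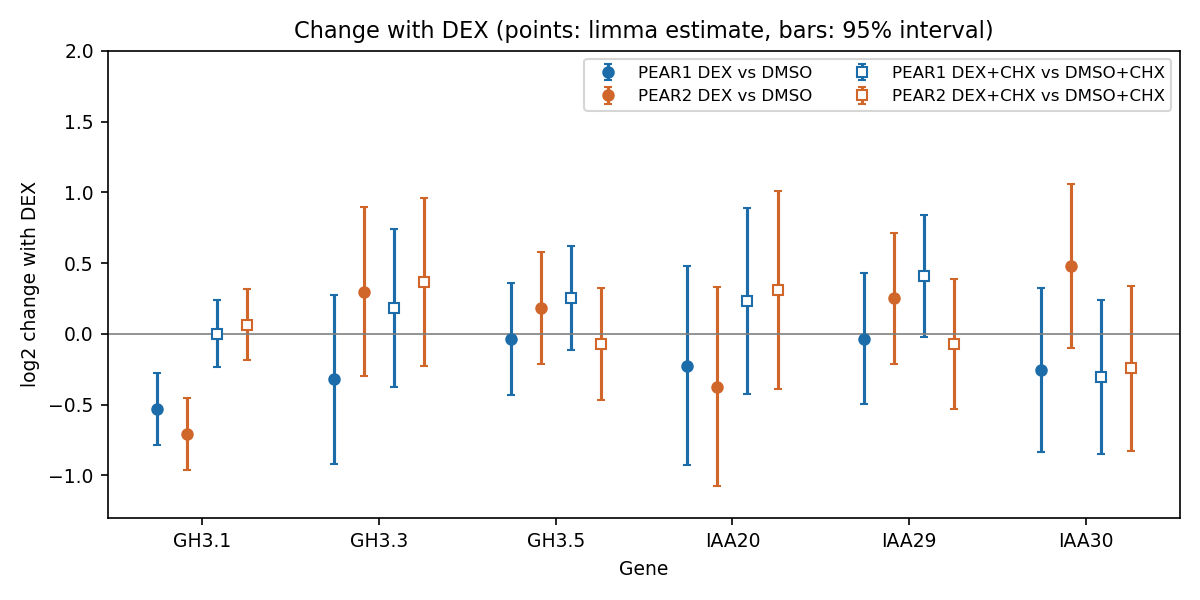
Change with DEX (y axis, log2) of each member (x axis) in both lines (colour), with 95% intervals from limma, for DEX against DMSO (circles) and DEX+CHX against DMSO+CHX (open squares). GH3.1 without CHX, at -0.53 and -0.71, is the one member called.

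The DEX change with CHX was then set against the DEX change without it, which uses all 4 groups of a line. For GH3.1 it was 0.77 ± 0.17 in PEAR2 plants (adjusted p = 0.00924), and 0.53 ± 0.17 in PEAR1 plants, where it was not called (adjusted p = 0.0761). That is 1 of 6 members in PEAR2 plants and 0 of 6 in PEAR1 plants by limma (1 in each at an unadjusted p under 0.05), where 5.48% of named rows were called in PEAR2 plants and 4.53% in PEAR1 plants. The same number is the difference of the CHX rises of GH3.1, which was 5.77 with DEX and 4.99 without it in PEAR2 plants. Time and batch both enter this difference and cannot be told apart from it, and it rests on the high GH3.1 readings with CHX just described. Whether the lines differ in it was not tested. Other listed genes were called in this difference too. WAG2 was higher in PEAR1 plants (1.95) and PEAR2 plants (2.25), and so was 1 of 5 other Aux/IAA genes in each line. Of 11 other GH3 genes, 1 was higher in PEAR1 plants and 1 lower in PEAR2 plants. Of 2 LBD genes 1 was higher in PEAR1 plants, and of 6 genes of auxin synthesis and turnover 1 was lower in PEAR2 plants. RCA was higher in PEAR1 plants (0.93).

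No member was called between the lines. Comparing PEAR1 with PEAR2 plants, 0 of 6 members were called in any of the 4 treatments, nor at an unadjusted p under 0.05, where 0.171% of named rows were called with DEX+CHX, 0.114% with DMSO+CHX, 0.731% with DEX and 0.189% with DMSO. The differences farthest from 0 were those of GH3.3 with DEX, -0.58 with a 95% interval of -1.18 to 0.02, and of IAA30 with DMSO, 0.51 with an interval of -0.07 to 1.09. Nor was any member called in the 4 tests of whether the lines differ in their change with DEX or CHX. The farthest from 0 was IAA30 with DEX against DMSO, at -0.73 with an interval of -1.55 to 0.09. For DEX against DMSO 0.109% of named rows were called in this test, for DEX+CHX against DMSO+CHX 0.0171%, for DEX+CHX against DEX 0.0400% and for DMSO+CHX against DMSO 0.149%. An alternative added after the data were seen left out the 3 arrays outside the CHX groups that lie nearest to them. In it, GH3.3 was called between lines with DEX (-0.99, adjusted p = 0.00619) and between DEX and DMSO in PEAR2 plants (0.97, adjusted p = 0.00388).

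Ordered by group mean, each member had its 4 groups with CHX above its 4 groups without it, and for the 5 members other than IAA20 no range bridged that step. Among the groups with CHX, each neighbour in that order overlapped the next for every member. Without CHX, the one step that did not overlap was in GH3.1, between the DMSO groups (6.63 ± 0.13 in PEAR1 plants and 6.59 ± 0.22 in PEAR2 plants) and the DEX groups (6.10 ± 0.17 and 5.88 ± 0.21 in the same order of lines, SD, n = 3 each). For IAA20 every neighbour overlapped, and its means ran between 1.59 and 2.92. The share of all named rows whose groups part in these ways, here or in the paragraphs above, was not counted. For CHX, 45.2% to 46.7% of named rows were called, and such a split is not read as particular to the members.

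Of 29 Aux/IAA genes 8 have a named row, 5 of them outside the members, and of 19 GH3 genes 14 have one, 11 of them outside. Cross-hybridisation between relatives this close was not tested. Among the 5 other Aux/IAA genes IAA18 was called higher with CHX in all 4 comparisons. It rose by 1.19 ± 0.16 and 0.96 ± 0.17 with DEX+CHX against DEX and by 0.60 ± 0.17 and 0.84 ± 0.17 with DMSO+CHX against DMSO (PEAR1 then PEAR2 line). Of all named rows 20.1%, 18.9%, 20.3% and 21.5% were called higher in the same order, so 1 of 5 is no result about the family. Among the 11 other GH3 genes 1 rose and 3 fell with DEX+CHX against DEX in PEAR1 plants, and 0 rose and 3 fell in PEAR2 plants. The falls are a share near that of all named rows called lower there (26.0% and 26.3%), so they are no result about the family. GH3.17, which conjugates auxin to glutamate, rose by 0.50 ± 0.12 in PEAR1 plants. GH3.18 fell by 0.70 in PEAR1 plants and by 1.24 in PEAR2 plants, and GH3.8 fell by 0.82 and by 0.84 in those lines. GH3.19 fell by 0.83 in PEAR1 plants, a call lost in 9 of 13 alternatives (-0.10 without DEX replicate 1), and GH3.15 fell by 0.48 in PEAR2 plants, lost in 5 of 14. In PEAR1 plants GH3.19 averaged 2.06 with DEX, over arrays of 1.14 to 3.51, and whether it was above background was not tested.

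With DMSO+CHX against DMSO, 1 other GH3 gene rose and 1 fell in PEAR1 plants, and 1 rose and 4 fell in PEAR2 plants. Of all named rows 20.3% were called higher and 25.2% lower in PEAR1 plants, and 21.5% and 25.2% in PEAR2 plants. With 11 genes these counts are no result about the family. GH3.7 rose by 1.12 in PEAR1 plants and GH3.9 by 0.64 in PEAR2 plants. GH3.15, known to act on an auxin precursor, fell by 0.94 in PEAR1 plants and by 0.79 in PEAR2 plants, and in PEAR2 plants GH3.8 fell by 0.93, GH3.18 by 0.52 and GH3.14 by 0.51. The group means of GH3.9 (1.51 to 2.17) and GH3.14 (1.65 to 2.22) lay under 2.68, and whether they were above background was not tested. The median change of these 11 genes was 0.03 and -0.14 with DEX+CHX against DEX and -0.03 and -0.17 with DMSO+CHX against DMSO, beside the medians over all named rows given above. With DEX against DMSO none of them was called. With DEX+CHX against DMSO+CHX, GH3.15 was higher by 0.69 in PEAR1 plants (adjusted p = 0.0158) and GH3.18 fell by 0.78 in PEAR2 plants (adjusted p = 0.00204). Leaving out single arrays ended the calls of GH3.7 (0.71 without DMSO replicate 3), GH3.9 (0.45 without DMSO+CHX replicate 2 and 0.56 without replicate 3) and GH3.14 (-0.35 without DMSO replicate 2, -0.46 and -0.49 without DMSO+CHX replicates 1 and 3). That of GH3.15 in PEAR1 plants ended without DEX+CHX replicate 3 (0.61) or DMSO+CHX replicate 1 (0.69) or 3 (0.63). The GH3.9 call was also lost in a fit of the groups compared alone (adjusted p = 0.0509). The GH3.14 call was also lost under quantile normalization once more (-0.30) and without the 3 arrays nearest to the CHX arrays (-0.35).

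**Figure D5:**
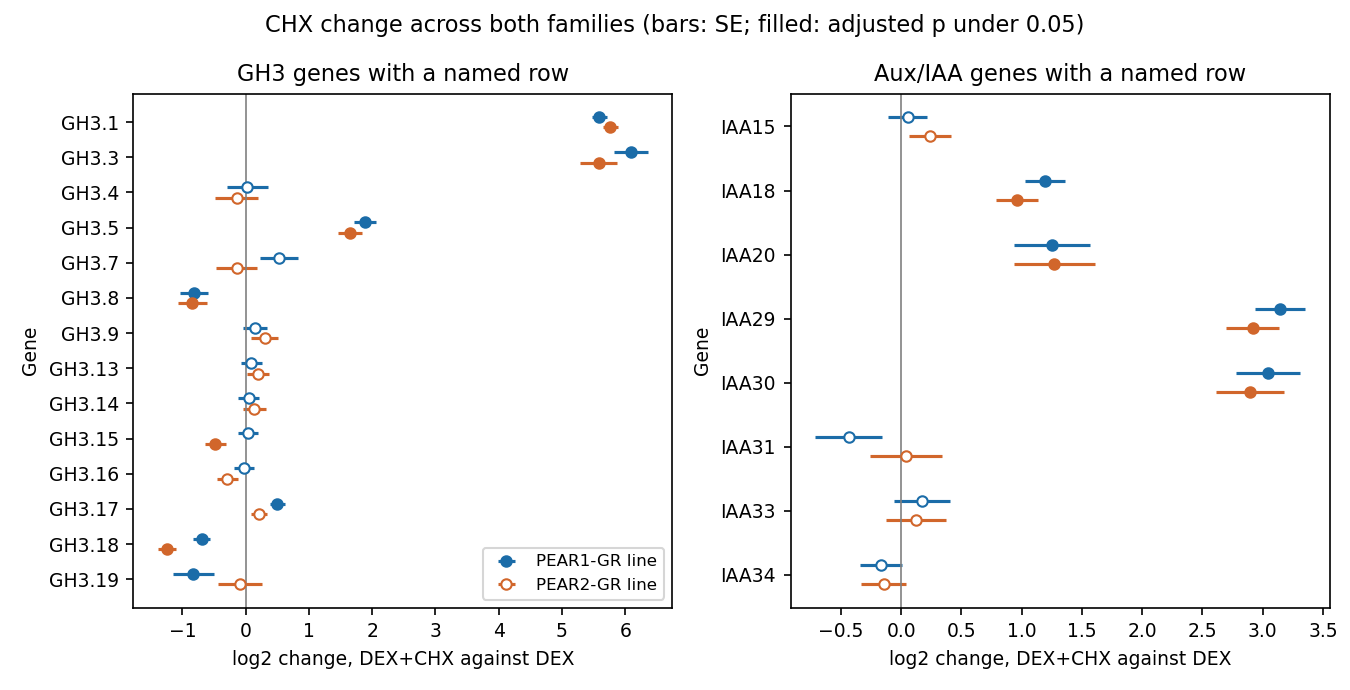
Change with DEX+CHX against DEX (log2, with standard error) of every Aux/IAA and GH3 gene with a named row, by line (colour), with filled points for called changes. GH3.1, GH3.3, IAA29, IAA30, GH3.5, IAA18 and IAA20 are called higher in both lines, and GH3.8 and GH3.18 lower in both.

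IAA33, an Aux/IAA protein without the degron, had another pattern. It averaged 4.90 ± 0.24 with DEX and 6.07 ± 0.23 with DMSO in PEAR1 plants, and 4.46 ± 0.18 with DEX and 6.05 ± 0.35 with DMSO in PEAR2 plants (SD, n = 3 each). It was thus lower with DEX (2 h) than with DMSO (1 h) by 1.18 (SE 0.25, adjusted p = 0.00811) and by 1.59 (SE 0.25, adjusted p = 0.000404), and DEX and time cannot be told apart. It was also lower with DMSO+CHX than with DMSO, by -1.40 and -1.82, and was not called for DEX+CHX against DEX (0.17 and 0.12) or against DMSO+CHX (0.39 and 0.36). The 1 h DMSO groups were the high ones, while the 6 groups treated for 2 h had means of 4.22 to 5.07. Without DEX replicate 1 the PEAR1 call with DEX was lost (-1.05, adjusted p = 0.0534).

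Few other genes of the auxin pathway could be read. None of 23 ARF genes, 6 TIR1/AFB receptor genes or the SAUR genes has a named row of its own. LBD29 and LBD16, targets of auxin response factors in lateral root formation, were the measured 2 of 4 LBD genes, and both were called higher with CHX in all 4 comparisons. LBD29 rose by 4.94 ± 0.19 and 4.51 ± 0.21 with DEX+CHX against DEX and by 4.48 ± 0.21 and 4.73 ± 0.21 with DMSO+CHX against DMSO (PEAR1 then PEAR2 line). LBD16 rose by 3.6, 3.25, 2.08 and 2.75 in the same order. LBD16 was called lower with DEX in PEAR1 plants (-0.91 ± 0.18), a call lost in a fit of the 6 arrays alone, and higher with DEX+CHX against DMSO+CHX there (0.62 ± 0.17, adjusted p = 0.0441), a call lost in 9 alternatives.

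WAG2, a kinase that acts on auxin transporters, was the measured 1 of 15 transport genes. It rose with DEX+CHX against DEX by 3.28 ± 0.22 and 3.19 ± 0.23 and with DMSO+CHX against DMSO by 1.33 ± 0.23 and 0.94 ± 0.23. With DEX against DMSO it fell by 2.13 and by 2.18, and for no gene can DEX and time (2 h and 1 h) be told apart in that comparison. Of 17 genes of auxin synthesis and turnover 6 have a named row. YUC6, an auxin synthesis enzyme, fell by 0.83 with DEX+CHX against DEX in PEAR2 plants, and by 0.81 and by 0.88 with DMSO+CHX against DMSO. YUC2, of the same enzyme family, fell by 0.73 with DEX+CHX against DEX in PEAR1 plants. DAO1, an auxin-oxidising enzyme, rose by 0.81 with DEX+CHX against DEX in PEAR1 plants and by 0.50 and 1.06 with DMSO+CHX against DMSO. Its neighbour in the family DAO2 rose by 1.27 with DEX against DMSO in PEAR2 plants, fell by 2.06 with DEX+CHX against DEX there, and was lower in PEAR1 than in PEAR2 plants with DEX (-1.86 ± 0.30, adjusted p = 0.00256, but 0.0735 in a fit of those 2 groups alone). The remaining 2 genes, YUC4 and YUC11, were not called in the comparisons of treatments. The YUC2 call was lost without DEX replicate 2 (-0.42) and under quantile normalization once more (-0.43, adjusted p = 0.0682). YUC2 was among the lowest 33.3% of rows by mean, and whether it was above background was not tested. The call of DAO1 with DMSO+CHX in PEAR1 plants was lost in 4 of 6 fits that left out 1 array (0.41 to 0.57). It was also lost without the 3 arrays nearest to the CHX arrays (0.41, adjusted p = 0.116). That of DAO2 with DEX against DMSO was lost in 3 of 6 (1.02 to 1.63). The last was lost too in a fit of the groups compared alone (adjusted p = 0.174) and without the 3 arrays nearest to the CHX arrays (0.82, adjusted p = 0.268).

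For each member the 3 single-gene rows whose 8 group means correlated best with its own were listed, as a description. IAA29 and GH3.5 were each other's nearest row among 16745 (r = 0.999). After GH3.5 came AT1G66880 and AT3G14870 for IAA29 (both r = 0.998), and for GH3.5 the next were AT3G14870 and AT4G29640 (both r = 0.997). IAA20 lay nearest to AT4G39840 (r = 0.995), CLE26, a signalling peptide gene, and AT5G07870 (both r = 0.992). The rows nearest to IAA30 were AT1G21590, AT4G40020 and AT4G33930, those nearest to GH3.1 were AT1G09932, VPS2.1 and AT4G39670, and those nearest to GH3.3 were AT1G05220, AT5G40000 and AT1G14480. These means share the arrays and the split by CHX, and between 4.39% (IAA20) and 11% (IAA30) of all single-gene rows had r over 0.95 with a member.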

How the data were processed

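The deposited values are log2 intensities, which the authors computed by RMA, per the submitters' processing notes. RMA removes background, makes arrays comparable and condenses probes to rows. The RMA version, its options, the level of summary and the build behind the array were not stated in the sources used here. Per the labels' protocols, a whole-transcript sense assay labelled the RNA. Column names matched all 25 columns of the 38408 rows to samples. The platform annotation gave 1 gene for 16746 rows (16601 of them in the RefSeq table), several for 758 and none for 20904.

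Limma 3.58.1 in R 4.3.3 fitted 1 mean for each group across the 25 arrays, pooling the spread of all groups. The p-values were adjusted over 17504 named rows, and the number of arrays limits precision. The scripts were tested on simulated data. Members and gene lists were chosen with earlier results of these data known. All members are named, as is every listed gene that passed a comparison of treatments or lines. For the DEX change with CHX minus that without, most listed genes outside the members are given as counts. Replicate numbers do not pair the samples: same-numbered arrays deviated together with r of -0.12 to 0.10 only. The alternatives were a fit of the groups compared alone, all rows tested, the lowest 33.3% of rows left out, repeated quantile normalization, equal 75th percentiles, a trend with robust prior, a replicate block and each array left out. One more, added after the data were seen, left out the 3 arrays without CHX that lie nearest to the CHX arrays on the first principal component. They are not close to them. Those 3 scored -70.2, -71.3 and -70.6, the other arrays without CHX -72.7 to -77.8, and every CHX array 57.6 or more. No sequences were used here.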

Additional observations from a re-analysis of the deposited data

Results flagged for a closer look

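Among the 6 members, GH3.1 was picked out because its DEX change differed with and without CHX in the PEAR2 line. This came from a test of the difference itself. The DEX change with CHX was 0.07 and the change without it -0.71, a difference of 0.77 (SE 0.17, limma adjusted p = 0.00924), with all 3 DEX arrays below all 3 DMSO arrays. In the PEAR1 line the same difference was 0.53 (SE 0.17) and was not called. A fit on only the groups compared gave adjusted p = 0.0611 in the PEAR2 line. The DMSO arrays were taken at 1 h and the DMSO+CHX arrays belong to another batch, and neither can be told apart from this difference. With CHX, GH3.1 read above 99.79% to 99.85% of named rows in its groups, and whether a DEX change could register that high on the scale was not tested.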

How the results depend on the processing

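The rises of GH3.1, GH3.3, GH3.5, IAA29 and IAA30 with CHX kept their direction and their call under all 56 alternatives of each gene, over 4 comparisons. GH3.1 ranged from 4.89 to 5.89, GH3.3 from 5.17 to 6.34, GH3.5 from 1.46 to 2.02, IAA29 from 2.52 to 3.44 and IAA30 from 2.61 to 3.75. IAA20 was not called in 19 of its 52, and leaving out the lowest 33.3% of rows removed it. Quantile normalization once more moved the median over all named rows to 0.15 and 0.12 (DEX+CHX against DEX) and to 0.11 and 0.12 (DMSO+CHX against DMSO), below every member change called here.

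The number of members called with DEX against DMSO was 0 in each line in a fit of the groups compared alone. Without the 3 arrays nearest to the CHX arrays (PEAR1 DMSO replicate 1, PEAR2 DMSO replicate 2 and PEAR2 DEX replicate 3) it was 0 for PEAR1 plants and 2 for PEAR2 plants, and 1 member was called between lines with DEX. Leaving out 1 array at a time gave 0 to 1 for PEAR1. For the DEX change with CHX minus that without, PEAR1 plants had 1 member called without the lowest 33.3% of rows and 1 with the trend and robust prior, and PEAR2 plants 0 in a fit of the groups compared alone. GH3.1 in PEAR2 plants stayed called there without any 1 array (0.65 to 0.89).

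These changes, none of them called, crossed 0. Without the same 3 arrays, GH3.3 and GH3.5 with DEX in PEAR1 plants became 0.0093 and 0.22, and the DEX change with CHX minus that without became 0.20 for IAA30 in PEAR1 plants and -0.60 for GH3.3 in PEAR2 plants. With the replicate block, IAA20 and GH3.1 with DEX+CHX against DMSO+CHX in PEAR1 plants became -0.018 and -0.017, and IAA30 became 0.028 in the DEX change with CHX minus that without. The block changed no call of a member and ended those of GH3.19 (-0.82) and LBD16 (0.67) named in the report. Quantile normalization gave -0.0036 for GH3.1 with DEX+CHX against DMSO+CHX in PEAR2 plants. Leaving out 1 array at a time gave, with DEX in PEAR1 plants, -0.18 to 0.12 for IAA29, -0.56 to 0.0093 for GH3.3 and -0.17 to 0.22 for GH3.5. With DEX+CHX against DMSO+CHX it gave -0.018 to 0.47 for IAA20 and -0.025 to 0.017 for GH3.1 in PEAR1 plants, and -0.29 to 0.13 for IAA29 and -0.21 to 0.080 for GH3.5 in PEAR2 plants. IAA33 with DEX+CHX against DEX ran from -0.049 to 0.36 in PEAR2 plants. The DEX change with CHX minus that without ran from -0.30 to 0.23 for IAA30 in PEAR1 plants and from -0.34 to 0.35 for GH3.3 in PEAR2 plants. The causes were not tested.

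Counts over all named rows moved more. A fit of the groups compared alone called 122 rows with DEX against DMSO in PEAR1 plants (538 with all arrays) and 166 in PEAR2 plants (717), and 380 (628) and 569 (1302) with DEX+CHX against DMSO+CHX. Leaving out 1 array gave 349 to 455, 465 to 646, 227 to 574 and 696 to 980 in the same order. Between lines, over all alternatives, 6 to 66 rows were called with DEX+CHX (30 as reported), 9 to 34 with DMSO+CHX (20), 19 to 179 with DEX (128) and 3 to 63 with DMSO (33). The tests of a difference between lines ran from 2 to 77 for DEX against DMSO (19), 0 to 9 for DEX+CHX against DMSO+CHX (3), 2 to 36 for DEX+CHX against DEX (7) and 4 to 45 for DMSO+CHX against DMSO (26). No fit with batch as a term was possible, since DMSO+CHX fills its batch alone, and another background correction could not be made from RMA values.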
